A study of Oryza sativa with 3 samples.

Results

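The array carried 48 probes for the rice miR169 family, all those whose name begins with osa-miR169 and a member letter, among 42477 probes that are not controls. They cover 16 members, a to p, with 3 probes each. The last field of the probe name is Mature, 5'seq or 3'seq, so each field holds 16 probes. The files do not say which stretch of a transcript each field stands for, and the fields are used here as labels. Every probe was printed as 2 spots on each array, whose values were averaged. The names give the chromosome: 5 members lie on chromosome 8, 3 on chromosome 9, 2 each on chromosomes 2, 4 and 11, and 1 each on chromosomes 1 and 6. Total RNA came from roots of rice seedlings (Oryza sativa, cultivar TN-67) aged 6 days. One group had been exposed to 1 mM vanadium and the other to water, and both are otherwise labelled alike. Each of 3 arrays held the vanadium RNA of a biological replicate in Cy5 and its water RNA in Cy3. The dyes were never swapped, so a dye effect of a probe cannot be told apart from an effect of vanadium in any ratio given here.

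Plant miRNAs are cut from a stem-loop within a longer primary transcript, and the mature strand guides the silencing of complementary mRNAs. The miR169 family is a large one in plants, and its known targets are mRNAs of NF-YA, the A subunit of the trimeric NF-Y transcription factor that binds CCAAT boxes. In rice, miR169g and miR169n have been described as responsive to drought or salt. The labels describe total RNA amplified to labelled cRNA by in vitro transcription, and they name no step that enriches small RNA. A signal at these probes may therefore come from primary transcripts, from shorter forms or from related sequences, and the arrays do not separate these. The files pair locus numbers with no gene names, so NF-YA mRNAs and root marker genes were not analysed here.

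Most of the family gave little signal in these roots, and the members that could be measured moved in both directions. The 5'seq and 3'seq probes of miR169i and the 5'seq probe of miR169h, on chromosome 8, were lower under vanadium, by 1.63-fold to 2.07-fold. The other probes of these members were not tested. Smaller falls, of 1.24-fold and 1.20-fold, were called at the 5'seq probes of miR169a and miR169j. The Mature probe of miR169a was 1.60-fold higher, and probes at the 3'seq of miR169n, miR169b and miR169p were higher by 1.33-fold, 1.29-fold and 1.22-fold. With the normalization used here, the 3'seq probe of miR169i alone among called members reached a 2-fold change. Ratios are log2 values of vanadium over water, after background correction and normalization within each array. That correction adds an offset of 50 to both channels, which draws the ratios of dim probes toward 0.

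A probe was tested if the scanner software marked it as well above background on all 3 arrays in at least one of the channels, which held for 11 of the 48 probes. Of these, 7 met this in both channels, 2 in the water channel alone and 2 in the vanadium channel alone. Of the last 4, all but the 5'seq probe of miR169c entered through the channel in which they were the higher after normalization, so a count over the 11 is a description and no sign of how the family responded. By limma with Benjamini-Hochberg adjustment over all 29883 probes tested, 4 of the 11 rose under vanadium, 5 fell and 2 missed the threshold of 0.05. Over all tested probes 50.4% were called, 29.3% as higher and 21.1% as lower. When the ratio computed by the scanner software was used instead, 3 family probes rose and 6 fell, and that scaling moved the median of all tested probes to -0.13, from 0.02 here. Over all 29883 probes, 6734 rose and 9757 fell under that scaling. Among probes bright in both channels on every array, 3 of 7 were higher and 3 lower. Over all 27167 probes that met this, 7309 were higher and 6090 lower. The median log2 ratio of the 11 probes was -0.27.

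The 3 probe fields differed in how often they were measurable. Of 16 Mature probes 1 was tested, against 5 of 16 at the 5'seq and 5 of 16 at the 3'seq. No array reached that mark in either channel for 11 Mature probes, 7 at the 5'seq and 5 at the 3'seq. At the 5'seq 4 of the 5 tested probes were lower and the other was not called, with a median log2 ratio of -0.31. At the 3'seq 3 were higher and 1 lower, with a median of 0.28. Over all 16 probes of each field, tested or not, the median was -0.079 at the 5'seq and -0.012 at the 3'seq. The lower miR169a 5'seq, the higher miR169b 3'seq and the lower miR169i 3'seq probes were tested only through the channel where they were higher. Of tested probes of other miRNAs, 17 of 56 were higher and 13 lower at the 5'seq. At the 3'seq 12 of 55 were higher and 15 lower. These are counts of few probes, and the difference between the fields was not tested.

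By the mark of well above background, detection was alike in both channels. In the vanadium channel 17, 14 and 12 of the 48 probes were well above background on replicates 1, 2 and 3, and in the water channel 18, 12 and 13. On all 3 arrays 9 probes were so marked in the vanadium channel and 9 in the water channel. At least 1 probe was tested for 8 members, a, b, c, h, i, j, n and p. For the other 8 members none was, and for miR169k and miR169o no probe reached that mark on any array. Below, at background means that this mark was not reached, which does not exclude a weaker signal. By the software's positive and significant flag, 21 probes were detected on all arrays in the vanadium channel and 22 in the water channel. Stricter rules gave fewer. With the mark of well above background needed at both spots, the counts were 6 and 6. Above the 99th percentile of negative controls they were 3 under vanadium and 5 in water.

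The clearest falls were at miR169i, where the 5'seq and 3'seq probes were tested. Its 5'seq probe had log2 ratios of -0.99, -0.76 and -1.04 on replicates 1, 2 and 3. It was lower under vanadium on every array, with a mean of -0.93 ± 0.09 (SE, n = 3 arrays, limma adjusted p = 0.000361). After normalization between arrays its log2 levels were 8.50, 7.53 and 7.75 under vanadium and 9.50, 8.28 and 8.79 in water. The 2 groups overlapped, since replicate 1 was the highest in both channels, although the vanadium value lay below the water value of its own array each time. As read from the scan, its signal was 209.5, 191 and 221 in Cy5 (vanadium) and 676.75, 431.25 and 611 in Cy3 (water). The 99th percentile of negative controls was 71.68, 214.48 and 355.4 in Cy5 and 104.66, 314 and 486.2 in Cy3. The vanadium signal thus lay below it on replicates 2 and 3, and the water signal above it on each array.

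At the 3'seq of miR169i the mean fall was larger, with log2 ratios of -1.27, -0.69 and -1.19. The mean was -1.05 ± 0.13 (SE, n = 3 arrays, limma adjusted p = 0.000950). Under vanadium it was well above background only on replicate 1, in water on all 3 arrays, so the size of the fall on the other arrays rests on a vanadium signal near background. As read from the scan, its signals on replicates 2 and 3 were 102 and 102 under vanadium and 264.75 and 385 in water. Both channels lay below the 99th percentile of negative controls there (214.48 and 355.4 in Cy5, 314 and 486.2 in Cy3). Its water levels were uneven, at 9.25, 7.36 and 8.07 on the log2 scale, and its vanadium levels were 7.98, 6.67 and 6.88. Replicate 1 was again the highest in both channels, and the groups overlapped. Between the 2 probes of miR169i the ratio differed by -0.28, 0.07 and -0.15 on replicates 1, 2 and 3 (3'seq minus 5'seq), a mean of -0.12 ± 0.18 (SD, n = 3, exact two-sided sign permutation p = 0.5). The Mature probe of miR169i stayed at background in both channels of every array.

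The 5'seq probe of miR169h, also on chromosome 8, had the most even fall of all tested members. Its log2 ratios were -0.71, -0.67 and -0.73, with a mean of -0.70 ± 0.08 (SE, n = 3 arrays, limma adjusted p = 0.000581). Both channels were well above background on all arrays, by both spots. Its signals as read were 200.75, 168 and 196 under vanadium and 517.25, 358.5 and 465.25 in water. The 99th percentile of negative controls was 71.68, 214.48 and 355.4 in Cy5 and 104.66, 314 and 486.2 in Cy3. The vanadium signal thus lay below it on replicates 2 and 3, and the water signal on replicate 3. Its levels were 8.40, 7.29 and 7.59 under vanadium and 9.11, 7.96 and 8.31 in water, highest on replicate 1 in both groups as at miR169i. Its 3'seq partner was at background throughout, and its Mature probe was well above it on replicate 3 by 1 of its 2 spots. Whether the probes of miR169h and miR169i read separate transcripts was not tested.

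The scanner software's own ratio gave larger falls at these 3 probes, past 2-fold at each. It was -1.48 for the 5'seq and -2.26 for the 3'seq of miR169i, and -1.25 for the 5'seq of miR169h (limma adjusted p = 0.000594, 0.00193 and 0.00114). Relative to the median of all tested probes under that scaling, the values were -1.35, -2.13 and -1.13. With the background correction used here but its offset at 0, the 3 ratios were -1.11, -1.41 and -0.88 in the same order. The miR169h value then stayed short of 2-fold. The direction was therefore the same under each of these, and the size was not settled. Why the scanner ratio was larger was not tested.

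The Mature probe of miR169a, the one member named for chromosome 1, was the one Mature probe of the family that could be tested. Its signals as read were 1282.5, 2605 and 2510 in the vanadium channel and 1445, 1681 and 1664.5 with water RNA on replicates 1, 2 and 3. The other 15 Mature probes had medians of 66, 77.25 and 78.75 with vanadium RNA, and of 103.25, 176.5 and 175.25 with water RNA. For negative controls these medians were 62, 67 and 68 in the first case and 89, 160 and 154.5 in the second, so those 15 probes lay mostly near the level of spots that match no transcript. Brightness depends on the probe as well as on its target, and these values do not rank the members' abundance.

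Under vanadium the miR169a Mature probe was higher on every array. Its log2 ratios were 0.58, 0.64 and 0.80, with a mean of 0.68 ± 0.08 (SE, n = 3 arrays, limma adjusted p = 0.00101). Normalized levels were 11.14, 11.13 and 11.11 under vanadium and 10.56, 10.49 and 10.31 in water, so the groups did not overlap. It was also the one member called when the 6 channels were fitted as separate groups without the pairing by array (limma adjusted p = 0.00775). Under that fit the falls at miR169i and miR169h had adjusted p between 0.109 and 0.225 (limma), and their means are the same by construction.

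The 5'seq and 3'seq probes of miR169a did not follow its Mature probe. The 5'seq probe had log2 ratios of -0.23, -0.27 and -0.43, lower on each array, with a mean of -0.31 ± 0.08 (SE, n = 3 arrays, limma adjusted p = 0.0217). In its vanadium channel the mark was reached on 0 of the 3 arrays. Its mean log2 levels were 7.19 in water and 6.88 under vanadium, a 1.24-fold difference. The lowest level marked as well above background lay under its own vanadium level on each array, so a floor at that level leaves this value as it is and gives no separate bound. The call was lost without replicate 2 (limma adjusted p = 0.0527) and without replicate 3 (0.184). With median centring in place of loess (0.160) and without the pairing by array (0.123) it was lost too. The scanner software's ratio was -1.03. Between the 5'seq and Mature probes the ratio differed by -0.81, -0.91 and -1.23 (5'seq minus Mature), a mean of -0.98 ± 0.22 (SD, n = 3, exact two-sided sign permutation p = 0.25, the smallest that 3 arrays allow). Each array had the Mature probe higher and the 5'seq probe lower. At the 3'seq of miR169a the probe was well above background in water on replicates 1 and 2 and in no vanadium channel, with log2 ratios of -0.26, -0.35 and -0.27. It did not pass the filter, and without the filter it was called lower at -0.29 (limma adjusted p = 0.0220).

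Among the smaller rises, the 3'seq probe of miR169n on chromosome 11 had the lowest adjusted p. Its log2 ratios were 0.50, 0.41 and 0.31, with a mean of 0.41 ± 0.08 (SE, n = 3 arrays, limma adjusted p = 0.00696). Both spots of both channels were well above background on every array. Levels were 9.40, 8.86 and 8.82 under vanadium and 8.90, 8.45 and 8.51 in water, with replicate 1 highest in both groups and an overlap between them. Its 5'seq and Mature probes were at background on all arrays. The second member named for chromosome 11, miR169o, gave no signal well above background at any of its 3 probes.

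On chromosome 8, the 3'seq probe of miR169p differed more between replicates than between treatments. Its signals as read were 340.5, 898.75 and 2019.5 in the vanadium channel and 450.5, 874 and 1786 in the water channel on replicates 1, 2 and 3. After normalization between arrays the levels were 9.19, 9.61 and 10.79 under vanadium and 8.88, 9.46 and 10.41 in water. The levels thus spanned 1.61 and 1.53 on the log2 scale over the replicates, with the lowest value on replicate 1 and the highest on replicate 3 in both groups, and both spots of the probe showed it. The log2 ratios were 0.31, 0.15 and 0.38, with a mean of 0.28 ± 0.08 (SE, n = 3 arrays, limma adjusted p = 0.0315). That rise was not called with the scanner software's ratio (0.16, limma adjusted p = 0.188), without replicate 1 (adjusted p = 0.0730) or without replicate 3 (adjusted p = 0.220). Nor was it called with median centring (limma adjusted p = 0.481) or without the pairing by array (0.739).

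The Mature probe of miR169p went in opposite directions on the arrays. Its log2 ratios were -0.61, 0.38 and -0.70 on replicates 1, 2 and 3. On replicates 1 and 3 both spots of the water channel and no spot of the vanadium channel were well above background, and on replicate 2 the reverse held. The 2 spots had the same sign within each array. It was not tested on all arrays. Without replicate 2 it passed the filter and was called lower, at -0.66 (limma adjusted p = 0.00545), a result that rests on leaving out the array that went the other way. The 5'seq probe of miR169p was at background throughout.

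On chromosome 6, the 3'seq probe of miR169b had log2 ratios of 0.19, 0.70 and 0.20. The mean was 0.36 ± 0.12 (SE, n = 3 arrays, limma adjusted p = 0.0447), and replicate 2 stood above the other two. Without replicate 2 it was 0.19 and was not called (limma adjusted p = 0.143). The call was also lost with median centring (limma adjusted p = 0.0772) and without background correction (0.0631). Leaving out the filter on dim probes (0.0520) or the pairing by array (0.223) ended it too. Signal was well above background on all arrays under vanadium and in water only on replicate 1. Levels were 7.30, 7.58 and 6.96 under vanadium and 7.11, 6.89 and 6.76 in water, an overlap. With the scanner software's ratio the mean was 0.96. The 5'seq probe of miR169b was also uneven, at 0.12, 0.67 and -0.11, with signal well above background under vanadium on replicates 1 and 2 and on no array in water. It was not tested.

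The 5'seq probe of miR169j on chromosome 9 was lower by a small and even amount. Its log2 ratios were -0.24, -0.21 and -0.35, with a mean of -0.27 ± 0.08 (SE, n = 3 arrays, limma adjusted p = 0.0294). Leaving out any 1 of the replicates ended the call, with adjusted p of 0.0508, 0.0577 and 0.222 without replicates 1, 2 and 3 (limma). The call was also lost with median centring (limma adjusted p = 0.134), without background correction (0.0529) and without the pairing by array (0.407). With the scanner software's ratio the mean was -0.65. Both probes of miR169c on chromosome 4 that were tested did not pass the threshold. Its 3'seq probe had log2 ratios of -0.62, -0.24 and -0.09, a mean of -0.32 ± 0.12 (SE, n = 3 arrays, limma adjusted p = 0.0588). It was called lower with the scanner software's ratio (-0.80, limma adjusted p = 0.0406), when slide was a block (0.00601) and without replicate 3 (0.0426). The 5'seq probe had -0.56, 0.10 and -0.06, a mean of -0.17 ± 0.13 (limma adjusted p = 0.317), and its sign turned without replicate 1, while with slide as a block it was called lower (0.0315). Both were lowest on replicate 1, which lay on a slide of its own, while replicates 2 and 3 shared the other slide. The part of the slide in these values was not tested.

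The remaining 37 probes were not tested. In 23 of them neither channel was well above background on any array, and in 14 at least 1 channel was on at least 1 array. Over the 37, signals as read ran from 60.5 to 188.5 for vanadium RNA and from 89 to 298.75 for water RNA, and the median of their mean log2 ratios was -0.04. In miR169g, a member described as drought-responsive in rice, the 3'seq probe had log2 ratios of 0.69, 0.44 and 0.19, with only the vanadium channel of replicate 1 well above background. Its 5'seq probe had -0.05, -0.05 and -0.10, with both channels well above background on replicate 1 alone. At miR169j the 3'seq probe was similar to the first, at 0.47, 0.25 and 0.23, with 1 spot of the vanadium channel well above background on replicate 1. These values rest on signals near background on most arrays. When every probe was tested regardless of brightness, both 3'seq probes were called higher, miR169g at 0.44 and miR169j at 0.32 (limma adjusted p = 0.0205 and 0.0254). At the 3'seq of miR169m, signal appeared on replicate 2 in 1 of 2 spots, which read 319 under vanadium and 442 in water while the other spot read 58 and 155.5, so that value is of 1 spot and not of the probe.

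The 2 spots of a tested probe gave similar log2 ratios. Over the 33 pairs of spots of 11 probes on 3 arrays, their log2 ratios differed by a median of 0.11 and at most by 0.32. The falls at miR169i and miR169h and the rise of the miR169a Mature probe were larger than this on every array, whereas the ratios at the other tested probes were within the largest of these differences on at least one array. At the 3'seq of miR169n the spots differed by 0.32 on replicate 3, where its ratio was 0.31. Signals could differ more than ratios. The 2 spots of the miR169c 3'seq probe on replicate 3 read 260 and 126 under vanadium and 401 and 226.5 in water. Close ratios were not confined to tested probes. For the untested 5'seq probe of miR169e the spots differed by 0.042, 0.020 and 0.0052.

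The family was set beside the other 462 osa-miR probes of the array. Of those, 152 (32.9%) were tested, against 22.9% of the miR169 probes. Of other Mature probes 41 of 154 (26.6%) were tested, against 6.25% here. At the 5'seq 36.4% of other probes were tested and 31.2% of those of miR169, and at the 3'seq 35.7% and 31.2%. Among the 152 other probes tested, 34 were higher and 35 lower, 45.4% in all, with a median log2 ratio of 0.11. Among probes that are not of miRNAs, 70.8% were tested. These shares are set side by side as a description, since probes of one family can share sequence and are not replicates.

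With 3 arrays, their number limits the precision. Over all probes 29439 to 32471 per array and channel were well above background, no spot was saturated, and no spot of the family was marked as an outlier. The p-values rest on the spread between 3 arrays whose replicates the labels call biological. For each probe limma draws that spread toward a value shared by all tested probes, so they do not measure the probe's own spread alone. In bulk roots, fewer cells that make a transcript and less of it per cell cannot be told apart.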

How the data were processed

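The authors' deposited array files hold a median intensity for each spot and one for its surroundings, in red and in green, not normalized. Agilent Feature Extraction 10.7.1.1 wrote them, per the file headers. They also hold the software's log10 ratio of red over green and its processed intensity, and the yes or no flags used here are another column per the file headers. The authors' deposited table holds log2 ratios. It equalled log2 of the processed red over green intensity for 100% of 41882 probes with 1 spot within 0.001, so its scale and direction were settled, and its medians were -0.05, -0.19 and -0.21, so it was not centred.

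Normexp (offset 50) corrected the background and arrays were normalized by loess, with control and outlier spots at weight 0 (limma 3.58.1, R 4.3.3). Outlier spots were left out, spots of a probe averaged, and probes kept if at least 1 spot was well above background on all 3 arrays in either channel. Of 30922 probes kept, 1039 lacked a value on an array and were left out. The mean log2 ratio was tested against 0 with lmFit and eBayes, 2-sided, and SE is the moderated one. The pairing comes from the array that both RNAs of a replicate share, and their deviations correlated at 0.765, 0.611 and 0.771 across probes, against at most 0.057 between arrays. The deviations were taken from each channel's mean over the 3 arrays, which by itself pushes values between arrays down. That contrast therefore does not measure the strength of the pairing. Channel levels were taken after Aquantile normalization. The steps were also run on simulated data in which only a small part of the probes was changed. In these data 50.4% of tested probes were called, so that run does not measure the error of the calls given here. Members, rule and lists were chosen with earlier results of these data known. The rule for named probes was that every member is accounted for, with values on every array for each tested one.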

Additional observations from a re-analysis of the deposited data

How the results depend on the processing

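The falls at both miR169i probes and at the miR169h 5'seq, and the rises at the miR169a Mature and miR169n 3'seq probes, kept their direction in all alternatives run. Some of these could not change it. Another filter, or a fit without the pairing by array, leaves the mean log2 ratio of a probe as it is. No family spot was an outlier, so keeping outlier spots hardly changed the values. The scanner log ratio and the authors' table gave nearly the same ratios and do not count as separate support. The miR169a Mature probe was called in all 13, with log2 ratios of 0.53 to 0.72. The others named here lost the call when channels were fitted without the pairing by array (no replicate block), and the miR169n probe also with median centring. Of 139 values of single probes under alternatives, 26 lost the call, 5 gained one, 1 reversed and the rest kept direction and side of the threshold. The reversed one was the uncalled miR169c 5'seq probe, which ranged from -0.31 to 0.019 when 1 replicate was left out and was positive without replicate 1. Without the pairing 1 probe of the family was higher and 0 lower, with 4465 and 1973 over all probes. Median centring gave 1 higher and 3 lower, with 5407 higher and 4498 lower over all probes. The both-channel filter left 7 probes, 3 of them lower, with 6090 of 27167 lower over all probes. With no filter all 48 were tested, with 5 higher and 6 lower, beside 9094 and 6553 of 41415 over all probes. The calls gained there were the miR169a 3'seq (-0.29), miR169g 3'seq (0.44) and miR169j 3'seq (0.32) probes, and the miR169b 3'seq probe lost its call. Lower calls over all probes were 9757 with the scanner log ratio and 10043 with the authors' table, against 6308, and 40.8% and 40.9% of calls were then higher, against 58.1%. The median log2 ratio of all probes tested was -0.13 under both, -0.064 with median centring, -0.0040 with the both-channel filter and 0.00021 with no filter. Without 1 replicate, higher calls over all probes ranged from 6933 to 8299 and lower calls from 3980 to 5366, among 30324 to 30894 tested. In the family 7 probes were called each time, among 11 to 15 tested. Family probes detected on all arrays under vanadium were 21 by the positive and significant flag and 3 above the 99th percentile of negative controls, and in water 22 and 5. The causes were not tested. Of the 48 probes 23 were well above background in neither channel of any array, where signal over background limits what can be measured.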
